A study of Mus musculus with 10 samples.

Results

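The imprinted growth genes are 10 mouse genes of which a cell normally uses the copy from 1 parent and which set the size of the embryo and its organs: H19, Igf2, Igf2r, Meg3, Dlk1, Peg3, Mest, Grb10, Cdkn1c and Plagl1. They were picked by symbol from tables that together name 20983 genes; 8 of them are listed among 15498 genes of an embryonic table and all 10 among 15989 genes of an adult table. H19 and Igf2r are not among the genes of the embryonic table. The study asked what differs in mouse hearts without LARP7, a protein that binds the noncoding RNA 7SK in the complex that holds back the elongation kinase P-TEFb. All mice were C57BL/6. RNA came from whole embryonic hearts at E15.5, 3 samples with the genotype Larp7-/- (knockout) and 3 with Larp7+/+ (wild type), and from the apex of hearts at 4 months of age, 2 samples with the genotype Myh6Cre;Larp7f/f, in which Cre under the cardiomyocyte promoter Myh6 deletes Larp7 (adult knockout), and 2 with the floxed genotype Larp7f/f (adult control). Cells of the apex other than cardiomyocytes keep Larp7 by design of this cross. Separate animals are not named in the labels, so the p-values cover the spread among these samples alone, which may be technical.

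In imprinting, methylation laid down in egg or sperm marks a control region, and genes near it are then read from the maternal or the paternal chromosome alone. Genes read from the father's copy tend to promote fetal growth, and those read from the mother's copy tend to restrain it. Most are high in fetal tissue, heart included, and are shut down after birth. Of the 10 genes, Igf2, Dlk1, Mest, Peg3 and Plagl1 are known as paternally expressed, and H19, Igf2r, Meg3, Grb10 and Cdkn1c as maternally expressed in most mouse tissues. The values analysed here do not separate the parental copies, so they give the summed level of a gene and say nothing of its imprint.

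The values are per-million values that the authors rounded to whole numbers, written below as units; every sample sums to between 998498 and 1001508, so sequencing depth is unknown. The sources used here do not say whether gene length was divided out, so levels are compared between samples and not between genes. In almost every gene a knockout value and the control value with its replicate number sum to 1 fixed total. The totals of a gene lay within 2 of each other in 99.55% of the E15.5 genes averaging 10 or more and in 99.82% of such adult genes, and in each of the 10 imprinted genes. The SDs of both groups of a gene are therefore nearly equal and are not independent. A log2 change below is the difference of log2(value + 1), knockout minus control, from limma with the replicate number as a block; a gene is called at a Benjamini-Hochberg adjusted p under 0.05 over all genes tested. Larp7 itself averaged 46.3 ± 7.09 in E15.5 knockout hearts and 95.7 ± 7.51 in wild-type hearts (SD, n = 3 each), and 25 ± 1.41 in adult knockout apex and 27 ± 1.41 in adult control apex (SD, n = 2 each), so that its RNA checks the labels at E15.5 and not in the adult.

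The genes lie in several imprinted clusters of the mouse genome (GRCm38, the assembly of mm10, with GENCODE M21 annotation). Igf2 (chromosome 7 from 142650766 to 142666816, minus strand) lies 72.6 kb from H19 (chromosome 7 from 142575529 to 142578143, minus strand), a long noncoding RNA under the same control region. Cdkn1c (from 143458339 to 143461050, minus strand) and Peg3 (from 6703892 to 6730431, minus strand) are also on chromosome 7. Dlk1 (chromosome 12 from 109452823 to 109463336, plus strand) lies 77.7 kb from the noncoding RNA gene Meg3 (from 109541001 to 109571726, plus strand). Mest is on chromosome 6 (from 30723547 to 30748465, plus strand), Plagl1 on chromosome 10 (from 13060504 to 13131694, plus strand), Grb10 on chromosome 11 (from 11930508 to 12038683, minus strand) and Igf2r on chromosome 17 (from 12682406 to 12769664, minus strand). All but H19 and Meg3 are annotated as protein-coding.

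Of the 8 genes measured at E15.5, 4 had no overlap between knockout and wild-type hearts, Mest, Peg3, Plagl1 and Meg3, and their promoters are printed because they are the ones the embryonic result turns on. The windows are 300 bases around an annotated start, mostly upstream of it, from RefSeq on GRCm38.p6, in which 8 of the 10 genes matched (not H19 or Cdkn1c). Mest has 3 such windows, of which the second is shown, and Meg3 has 2, of which the first is shown. The Mest window is chr6:30737800-30738099 on the plus strand, the Peg3 window chr7:6730370-6730669 on the minus strand, the Plagl1 window chr10:13090582-13090881 on the plus strand and the Meg3 window chr12:109540746-109541045 on the plus strand. Each is written 5′ to 3′, and capitals mark matches, on either strand, to GGGGCCCC, the letters that the Plagl1 protein is known to bind, to GCCATNTT, a motif of the factor YY1, or to TATAAA, the TATA box.
Mest: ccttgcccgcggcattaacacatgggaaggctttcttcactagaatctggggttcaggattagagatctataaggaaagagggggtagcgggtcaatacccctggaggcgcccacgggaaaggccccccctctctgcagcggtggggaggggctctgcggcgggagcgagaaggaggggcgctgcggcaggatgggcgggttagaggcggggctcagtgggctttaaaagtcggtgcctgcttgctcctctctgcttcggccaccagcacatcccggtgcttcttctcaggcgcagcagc
Peg3: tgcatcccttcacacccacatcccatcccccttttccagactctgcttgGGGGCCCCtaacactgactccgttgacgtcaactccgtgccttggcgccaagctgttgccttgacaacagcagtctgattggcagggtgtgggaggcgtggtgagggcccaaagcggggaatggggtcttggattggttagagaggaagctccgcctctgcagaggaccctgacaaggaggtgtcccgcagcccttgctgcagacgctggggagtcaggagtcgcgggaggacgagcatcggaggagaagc
Plagl1: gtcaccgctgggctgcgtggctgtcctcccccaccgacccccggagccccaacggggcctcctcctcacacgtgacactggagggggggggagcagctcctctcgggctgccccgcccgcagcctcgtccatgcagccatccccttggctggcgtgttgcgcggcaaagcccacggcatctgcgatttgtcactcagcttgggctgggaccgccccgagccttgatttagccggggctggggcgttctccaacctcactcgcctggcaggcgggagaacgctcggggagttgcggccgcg
Meg3: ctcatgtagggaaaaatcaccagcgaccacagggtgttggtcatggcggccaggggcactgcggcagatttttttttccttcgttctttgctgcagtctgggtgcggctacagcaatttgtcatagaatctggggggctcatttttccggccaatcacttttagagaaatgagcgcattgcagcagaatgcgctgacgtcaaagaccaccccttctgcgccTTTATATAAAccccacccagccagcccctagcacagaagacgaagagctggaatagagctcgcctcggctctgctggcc

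The Peg3 window held 1 match to GGGGCCCC, a run that was present in 1.08% of all 32851 promoter windows. No other printed window held it, and none held GCCATNTT, which was present in 6.05% of all windows. The Meg3 window held TATAAA on both strands, overlapping each other, in the capital run TTTATATAAA; TATAAA was present in 13.62% of all windows. The GC content was 62.7% in the Mest window, 61.3% in Peg3, 70.7% in Plagl1 and 53.7% in Meg3, against a median of 52.7% over all windows (quartiles 45.7% and 61.7%). A match is a description of letters and does not show binding, and a window without a match says nothing of a factor elsewhere.

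The first comparison asked which of these genes differ in embryonic hearts that lack Larp7. Mest RNA was nearly doubled in the knockout hearts, Peg3, Plagl1 and Meg3 had higher values in every knockout heart than in any wild-type heart without passing the test over all genes, and Igf2, Dlk1, Cdkn1c and Grb10 overlapped between groups. Of the 8 genes 1 was called, as higher, where 0.632% of the 13609 genes tested were called, 0.529% as higher and 0.103% as lower. No overlap in the higher direction was seen for 4 of 8, against 19.3% of all genes, and an unadjusted p under 0.05 in that direction for the same number, against 10.3%. All 8 changes were above 0 (Grb10 was below 0 with median-of-ratios scaling), as were 60.4% of all changes, and the median of the 8 was 0.38, against 0.11 over all genes tested.

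**Figure D1:**
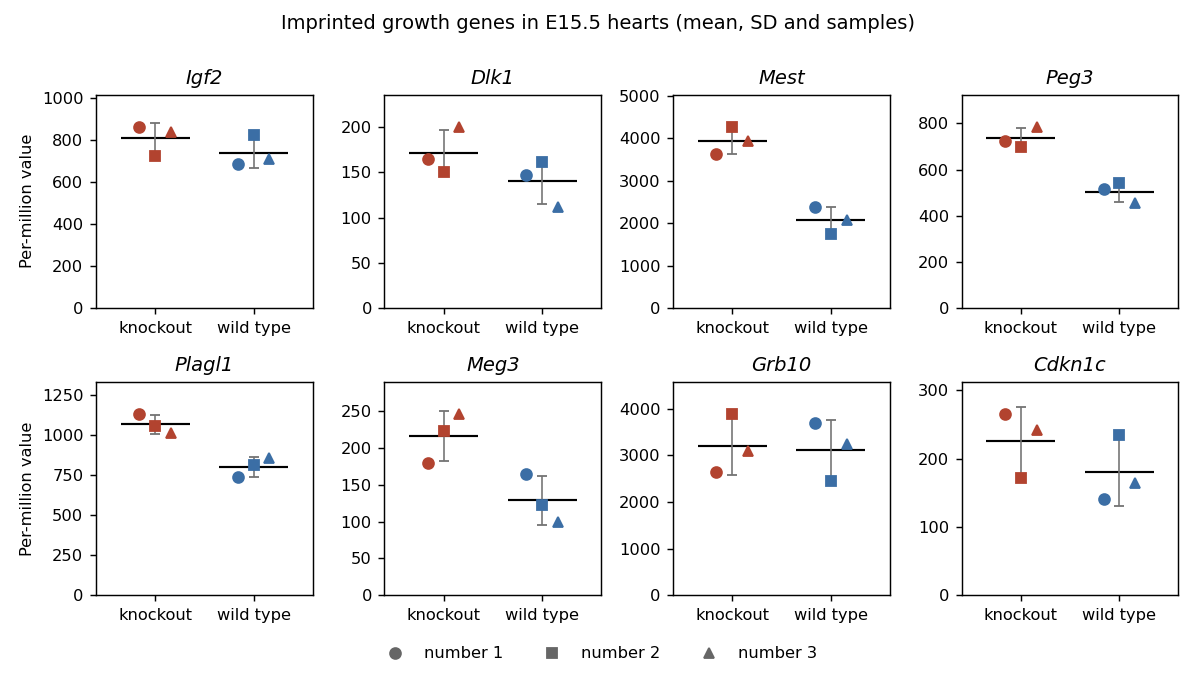
Per-million value of the 8 imprinted growth genes listed at E15.5 in each heart, knockout at the left and wild type at the right of each panel, with axes from 0; lines are means, bars are SDs (n = 3) and symbols give the replicate number. In Mest the knockout hearts sit between 3635 and 4262 and the wild-type hearts between 1753 and 2379, whereas in Grb10 and Igf2 the groups overlap.

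Among the paternally expressed genes, Mest, also called Peg1, encodes a protein of the alpha/beta hydrolase family that is abundant in embryonic mesoderm. Mest had 3635, 4262 and 3936 units in knockout hearts 1, 2 and 3, against 2379, 1753 and 2079 in wild-type hearts 1, 2 and 3. All knockout hearts were above all wild-type hearts, and the means were 3944 ± 314 and 2070 ± 313 (SD, n = 3 each). Mest rose, with a log2 change of 0.94, an SE of 0.20 and an adjusted p of 0.0236 in limma, which is 1.92-fold on the scale of value + 1. Its log2 change ranked 383 among the 13609 genes tested, counted from the most positive. The call was lost without either number 1 heart (adjusted p = 0.0662 and 0.0692, limma), without either number 3 heart (0.069 and 0.0703), with median-of-ratios scaling (0.0516), without the variance of rounding (0.473), with plain eBayes (0.529) and over genes with a mean of at least 10 (0.332), at log2 changes of 0.77 to 1.10 over all 16 alternatives. Without the variance of rounding, with plain eBayes and over genes with a mean of at least 10, 0 of all genes were called. Larp7 itself lost its call in each of those fits, at the same adjusted p as Mest. With the replicate block, leaving out either heart of a number gives the same log2 change, here and below. Such fits of 1 number are therefore not separate checks. In the authors' deposited table Mest has a log2 change of 0.87 with an adjusted p of 5.75e-07, and the authors' deposited table gives adjusted p of 0.069 for Peg3, 0.0971 for Meg3 and 0.182 for Plagl1.

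The end of Mest overlaps Copg2, a coat protein gene on the opposite strand, over 912 bases of their exons, and no source used here says that reads were counted by strand, so that reads of this stretch cannot be told apart. Copg2, looked at for this reason after its values were seen, had 1412, 1630 and 1136 units in knockout hearts and 822, 604 and 1098 in wild-type hearts. Its knockout values were also all above its wild-type values, but its log2 change of 0.75 was not called (adjusted p = 0.179, limma), and its highest and lowest hearts were number 2 of the knockout and number 2 of the wild type, as in Mest.

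Peg3 encodes a large zinc-finger protein needed for normal fetal growth and maternal behaviour in mice. Peg3 had 724, 700 and 784 units in the knockout hearts, against 517, 540 and 456 in the wild-type hearts. The groups did not overlap, with means of 736 ± 43.3 and 504 ± 43.4 (SD, n = 3 each), and the log2 change of 0.55 (SE 0.18) did not pass the test (adjusted p = 0.146, limma). With no replicate block, a fit that counts mirrored deviations as independent, Peg3 was called (adjusted p = 0.0322, limma), and it was also called without either number 2 heart (0.00894 and 0.00844). It was not called without either number 1 heart (0.484 and 0.479) or either number 3 heart (0.598 and 0.596).

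Plagl1, or Zac1, encodes a zinc-finger transcription factor known to bind and activate other imprinted genes in the mouse. Plagl1 had 1133, 1059 and 1013 units in the knockout hearts, against 737, 812 and 858 in the wild-type hearts. These groups did not overlap either, with means of 1068 ± 60.5 and 802 ± 61.1 (SD, n = 3 each) and log2 change 0.41 (SE 0.18, adjusted p = 0.294 in limma).

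Igf2 encodes insulin-like growth factor 2, the main fetal growth factor of the group, and Dlk1 encodes a membrane-bound and shed protein related to the Notch ligands. Igf2 had 860, 724 and 839 units in the knockout hearts, against 686, 822 and 708 in the wild-type hearts. The groups overlapped, since knockout heart 2 was below wild-type heart 2, and the log2 change was 0.13 (SE 0.18, adjusted p = 0.781, limma). Dlk1 had 165, 150 and 200 units in the knockout hearts, against 147, 162 and 112 in the wild-type hearts, with log2 change 0.30 (SE 0.18, adjusted p = 0.494 in limma). As in Igf2, the number 2 hearts ran against the numbers 1 and 3. Gm49394, which is not among the genes of either table, shares 3596 exonic bases with Igf2 on the same strand. Exons of Igf2 overlap those of Igf2os on the opposite strand over 98 bases; Igf2os had at most 16 units in the knockout hearts and at most 18 in the wild-type hearts.

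Among the maternally expressed genes, Meg3, a long noncoding RNA that is known as a tumour suppressor and is read from the same cluster as Dlk1, stood highest in the knockout relative to the wild type. Meg3 had 180, 223 and 246 units in the knockout hearts, against 165, 123 and 99 in the wild-type hearts. The groups did not overlap, though hearts 1 were close (180 against 165), and the means were 216 ± 33.5 and 129 ± 33.4 (SD, n = 3 each). The log2 change of 0.76 (SE 0.20) did not pass the test (adjusted p = 0.113, limma). It did without either number 1 heart (log2 change 1.08, adjusted p = 0.00848 and 0.00863), without either number 2 heart (0.71, adjusted p = 0.00376 and 0.00359), with a pseudocount of 4 (adjusted p = 0.0465) and with no filter on low values (0.00127). Without either number 3 heart it was smaller and not called (log2 change 0.49, adjusted p = 0.394 and 0.399, limma). Meg3 shares 1228 exonic bases with Gm26906 on the opposite strand, which had 7, 9 and 6 units in the knockout hearts and 6, 4 and 6 in the wild-type hearts.

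Cdkn1c encodes the cyclin-dependent kinase inhibitor p57Kip2, a brake on the cell cycle, and Grb10 an adapter that restrains signalling from the insulin and IGF receptors. Cdkn1c had 265, 171 and 242 units in the knockout hearts, against 141, 235 and 164 in the wild-type hearts. The groups overlapped through the number 2 hearts, and the log2 change was 0.34 (SE 0.26, adjusted p = 0.608, limma). Without either number 2 heart the log2 change of Cdkn1c was 0.73 and it was called (adjusted p = 0.00143 and 0.00146, limma). It was 0.051 without either number 1 heart (adjusted p = 1 for both) and 0.22 without either number 3 heart (adjusted p = 0.884 and 0.88, limma). Cdkn1c shares 625 exonic bases with Gm44732 on the opposite strand. Gm44732 had 22, 8 and 9 units in the knockout hearts and 4, 10 and 9 in the wild-type hearts, with totals from 18 to 26. Grb10 had 2644, 3886 and 3094 units in the knockout hearts, against 3691, 2448 and 3240 in the wild-type hearts. The number 2 hearts again ran against the others, in the opposite sense, and the log2 change of 0.04 (SE 0.22, adjusted p = 0.981, limma) turned to -0.27 without either of them and to -0.025 with median-of-ratios scaling.

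Differences within a replicate number restate the overlap result for the 8 genes, because same-numbered values add to a fixed total. Knockout therefore exceeded wild type in all 3 numbers for the genes without overlap, Mest, Peg3, Plagl1 and Meg3. The log2 difference of Mest was 0.61, 1.28 and 0.92 for numbers 1, 2 and 3, that of Peg3 0.49, 0.37 and 0.78, that of Plagl1 0.62, 0.38 and 0.24, and that of Meg3 0.12, 0.85 and 1.30. Igf2, Dlk1 and Cdkn1c were higher in the knockout for numbers 1 and 3 and lower for number 2, and Grb10 was lower for numbers 1 and 3 and higher for number 2.

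**Figure D2:**
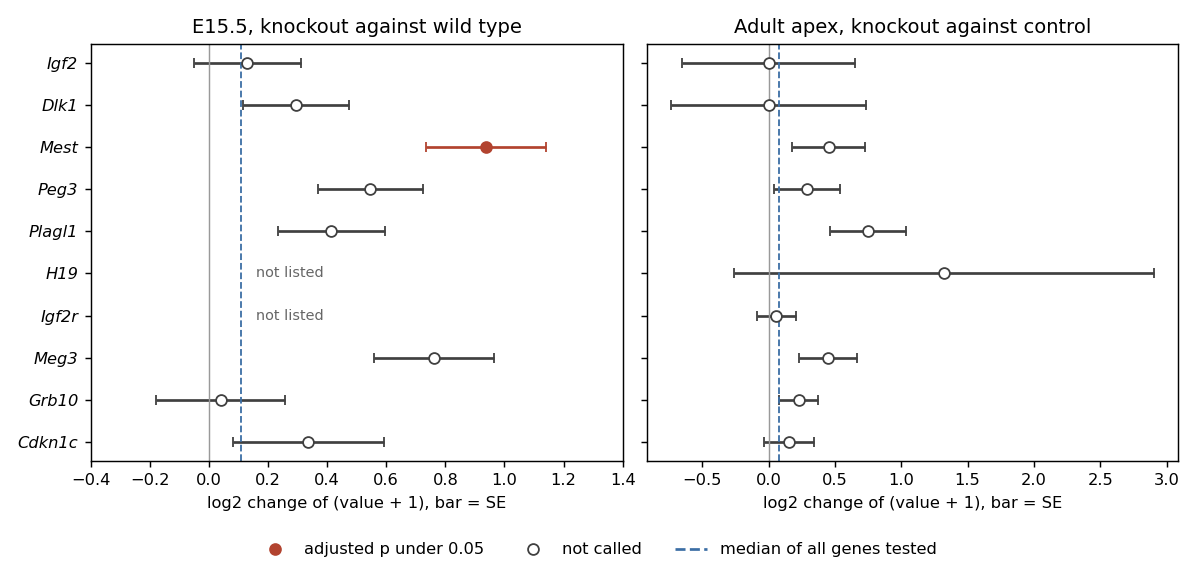
Log2 change of (value + 1), knockout minus control, with its SE for each imprinted growth gene at E15.5 (left) and in the adult apex (right, on a wider axis); filled points passed the test, the dashed line is the median of all genes tested, and H19 and Igf2r are not listed at E15.5. Mest at E15.5, at 0.94, is the single filled point, and H19 in the adult has the widest error.

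H19 is not among the genes of the E15.5 table, but small annotated RNAs that lie inside its exons are. Mir675 marks the hairpin of miR-675, which lies within an H19 exon (chr7:142577064-142577147, minus strand), and the mature arms, from RefSeq, are printed with their seeds (bases 2 to 8) in capitals because this entry is the nearest measure of the H19 transcript at E15.5.
mmu-miR-675-5p: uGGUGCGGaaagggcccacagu
mmu-miR-675-3p: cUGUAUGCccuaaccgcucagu
Mir675 had 118, 144 and 120 units in the knockout hearts, against 122, 96 and 120 in the wild-type hearts. The groups overlapped (log2 change 0.18, adjusted p = 0.677, limma). Gm27483 and Gm27786, on the opposite strand of H19 exons, had 32, 35 and 31 and 10, 12 and 10 units in the knockout hearts, against 30, 27 and 31 and 9, 8 and 10 in the wild-type hearts. In each of these entries knockout heart 2 was highest and wild-type heart 2 lowest. Reads of the long H19 transcript and of its hairpin cannot be told apart in such an entry, so the value belongs to neither mature arm.

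Markers of heart cell types stood as follows beside these results. All 5 listed cardiomyocyte markers (of 10) were lower in every knockout heart than in any wild-type heart, against 8.75% of all genes. Of these markers 0 were called in limma and 2 were lower at an unadjusted p under 0.05. Of all genes 13.9% reached that p in either direction and 10.3% as higher, which leaves the remainder as lower. The summed level of these markers was 12848 to 16189 units in knockout hearts and 17596 to 20938 in wild-type hearts. The 7 listed fibroblast markers summed to 4928 to 5796 in knockout hearts and 4044 to 4917 in wild-type hearts, with Pdgfra, a growth factor receptor of fibroblasts, called as higher (116 ± 1.73 against 70.7 ± 1.53, SD, n = 3 each, adjusted p = 0.0296, limma). The 9 endothelial markers summed to 1580 to 1697 and 1433 to 1551, and the 6 epicardial markers to 246 to 365 and 169 to 288. The 4 smooth muscle and pericyte markers summed to 339 to 389 and 319 to 370, with 2 changes above 0 and 2 below. The pericyte gene Rgs5 was called as lower, while Pdgfrb and Abcc9 had log2 changes of 0.32 and 0.28 and were not called. The 7 macrophage markers summed to 94 to 111 and 84 to 100, and the 9 erythroid markers to 4815 to 9629 and 3125 to 7709. Markers of other organs that could lie near a dissected heart were low for liver (6 listed, 4 to 12 against 3 to 6) and for lung and thymus (2 listed, 3 to 13 against 3 to 6). The 6 skeletal muscle markers, mostly Ckm and Acta1, summed to 493 to 560 against 934 to 1002. Ckm was called as lower, but 4 of the 6 changes were above 0 (60.4% of all genes), with a median of 0.44. Ckm averaged 1263 in adult control apex, so this sum does not mark skeletal muscle alone. No listed marker was at 0 in every heart. Their part in the higher levels of Mest, Peg3, Plagl1 and Meg3 was not tested, and in bulk RNA fewer cells of a type cannot be told apart from less RNA per cell.

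The second comparison asked the same of apex tissue at 4 months, with Cre active in cardiomyocytes. None of the 10 imprinted growth genes was called in limma, 2 had an unadjusted p under 0.05, Plagl1 and Meg3, and Igf2 and Dlk1 were at or near 0 in every sample. Over all 14835 genes tested 3.29% were called, 2.34% as higher and 0.95% as lower, and 9.05% were higher at an unadjusted p under 0.05. Knockout values lay above control values without overlap for Plagl1, Mest and Peg3, 3 of 10 genes, against 29.3% of all genes. The change was above 0 for 8 of 10 (Igf2r was below 0 with median-of-ratios scaling) and 0 for Igf2 and Dlk1, against 57.9% of all genes above 0, and the median was 0.26, against 0.08 over all genes tested. With 1 residual degree of freedom a gene, the errors of most genes here rest on the spread pooled over genes of similar level. H19 is an exception, since its SE of 1.59 reflects the spread of its own differences.

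**Figure D3:**
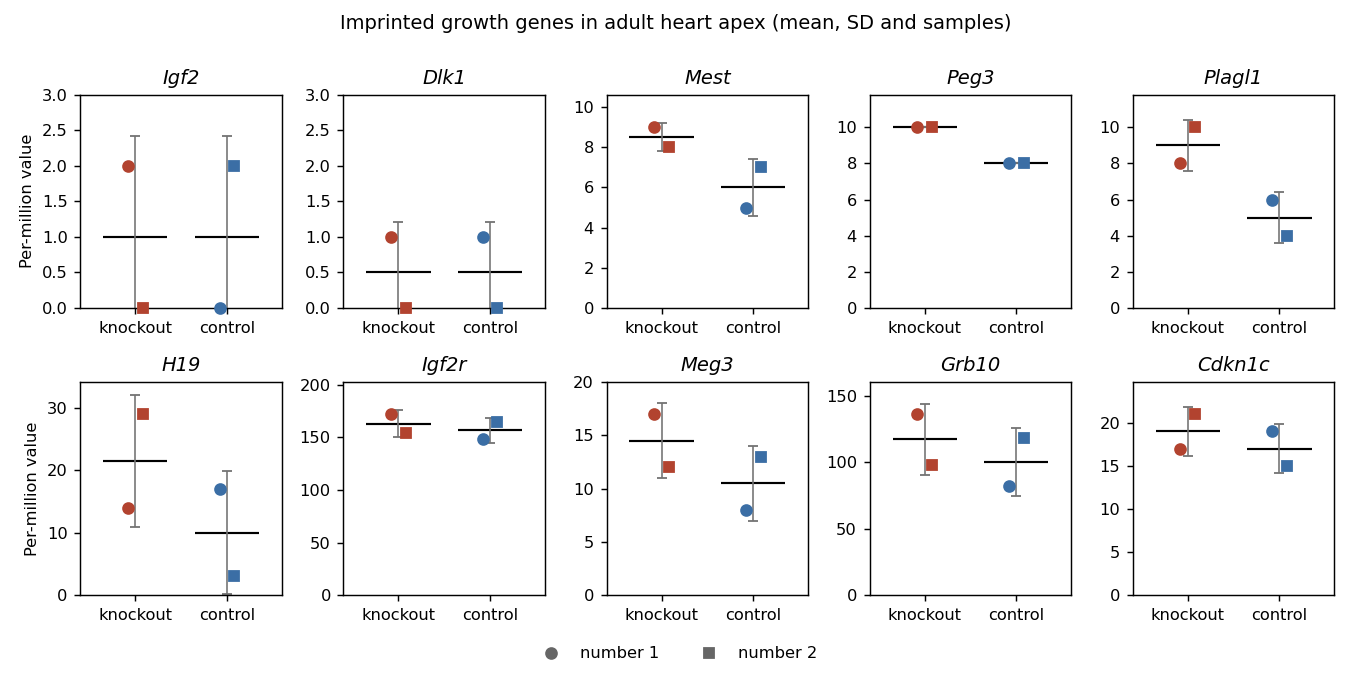
Per-million value of the 10 imprinted growth genes in each adult apex sample, knockout at the left and control at the right of each panel, with axes from 0; lines are means, bars are SDs (n = 2) and symbols give the replicate number. Igf2 and Dlk1 do not exceed 2, Igf2r lies between 148 and 172, and the knockout samples of Plagl1, Mest and Peg3 lie above the control samples of the same number by 1 to 6 units.

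Plagl1 had 8 and 10 units in adult knockout apex, against 6 and 4 in control apex, with log2 change 0.75 (SE 0.28, adjusted p = 0.15 in limma). Mest had 9 and 8 in knockout apex, against 5 and 7 in control apex, with log2 change 0.45 (SE 0.28, adjusted p = 0.557 in limma). Peg3 had 10 in both knockout samples and 8 in both control samples, with log2 change 0.29 (SE 0.25, adjusted p = 0.773 in limma). These differences amount to a few units of whole-number values in which the unit itself is the rounding step, and Peg3, with an SD of 0, was called only where the variance of rounding was left out (adjusted p = 0.028 with the replicate block and 0.000206 with no replicate block, limma) or where the numbers were crossed between groups (0.0494). The crossed fit called 6285 of the 14835 genes tested, since fixed totals make the crossed differences of a gene nearly equal.

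H19, the host transcript of miR-675, had 14 and 29 units in adult knockout apex, against 17 and 3 in control apex. The means of 21.5 ± 10.6 and 10 ± 9.9 (SD, n = 2 each) differed by a log2 change of 1.32 with an SE of 1.59 (adjusted p = 0.933, limma), and the groups overlapped. Knockout exceeded control in number 2 alone, since the log2 difference was -0.26 in number 1 and 2.91 in number 2. H19 was called with plain eBayes (adjusted p = 0.00126, limma) and under none of the other 10 alternatives with a test. Plain eBayes gave H19 the same SE, 0.306, as every other adult member, so that fit ranks them by log2 change alone. Meg3 had 17 and 12 units in knockout apex, against 8 and 13 in control apex, with log2 change 0.45 (SE 0.22, adjusted p = 0.371 in limma) and overlap between the groups.

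Among genes that bear on growth factor clearance, signalling and the cell cycle, Igf2r, Grb10 and Cdkn1c were not called. Igf2r encodes the cation-independent mannose 6-phosphate receptor, which takes IGF2 to the lysosome for breakdown. Igf2r had 172 and 154 units in knockout apex, against 148 and 165 in control apex, with log2 change 0.06 (SE 0.15, adjusted p = 0.955 in limma), and -0.00405 with median-of-ratios scaling. Grb10 had 136 and 98 in knockout apex, against 82 and 118 in control apex, with log2 change 0.23 (SE 0.15, adjusted p = 0.605 in limma). Cdkn1c had 17 and 21 in knockout apex, against 19 and 15 in control apex, with log2 change 0.15 (SE 0.19, adjusted p = 0.877 in limma). These 3 genes overlapped between groups, and in each, as in H19 and Meg3, the difference within number 1 had the opposite sign to that within number 2. Igf2 had 2 and 0 in knockout apex, against 0 and 2 in control apex, and Dlk1 1 and 0 in knockout apex, against 1 and 0 in control apex, so that no fold is given for either.

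Adult markers are given in the same way. The 10 fibroblast markers summed to 2490 to 2813 units in knockout apex and 1371 to 1692 in control apex, with 9 of 10 higher without overlap (29.3% of all genes) and 0 called in limma (3 higher at an unadjusted p under 0.05, against 9.05% of all genes). The 10 epicardial markers summed to 84 to 130 and 24 to 69, with 3 called as higher (2.34% of all genes), and the 10 macrophage markers to 774 to 779 and 656 to 663, with 1 called as higher. The 10 endothelial markers summed to 1036 to 1072 and 1145 to 1180, the 10 smooth muscle and pericyte markers to 1173 to 1176 and 1261 to 1266, the 10 cardiomyocyte markers to 58277 to 58985 and 61542 to 62250 (Myh7 was called as higher), and the 8 erythroid markers to 1277 to 2891 and 132 to 1489. The 3 listed skeletal muscle markers, mostly Ckm and Acta1, summed to 2346 to 2397 and 1395 to 1444. The 2 liver markers summed to 4 to 5 and 4 to 6, and the 1 marker of lung and thymus was at most 1 and 0. Their part in the values of the imprinted genes was not tested.

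The 8 genes listed at both ages were lower in the adult apex than in the whole embryonic heart, by factors that differed widely between genes; H19 and Igf2r have no E15.5 value to set beside the adult one. The tables were normalized separately and sample different parts of the heart, so levels are set side by side without a test. Cdkn1c averaged 17 in adult control apex and 180 in E15.5 wild-type hearts, an E15.5 level 10.6 times the adult one. Meg3 averaged 10.5 and 129, an E15.5 level 12.3 times the adult one, and Grb10 averaged 100 and 3126, 31.3 times. Peg3 averaged 8 and 504, 63 times, Plagl1 5 and 802, 160 times, and Mest 6 and 2070, 345 times the adult level. Igf2 averaged 1 and 739 and Dlk1 0.5 and 140, with adult values that include 0. Among these 8 genes the paternally expressed Igf2, Dlk1, Mest, Plagl1 and Peg3 thus had wider gaps between the ages than the maternally expressed Grb10, Meg3 and Cdkn1c. The gaps of the paternally expressed genes rest on adult control means of 0.5 to 8 whole-number units, where rounding weighs on a ratio. Among knockout samples the order was the same where both ages can be divided, from 11.9 times for Cdkn1c and 14.9 for Meg3 through 27.4 for Grb10, 73.6 for Peg3 and 119 for Plagl1 to 464 for Mest.

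**Figure D4:**
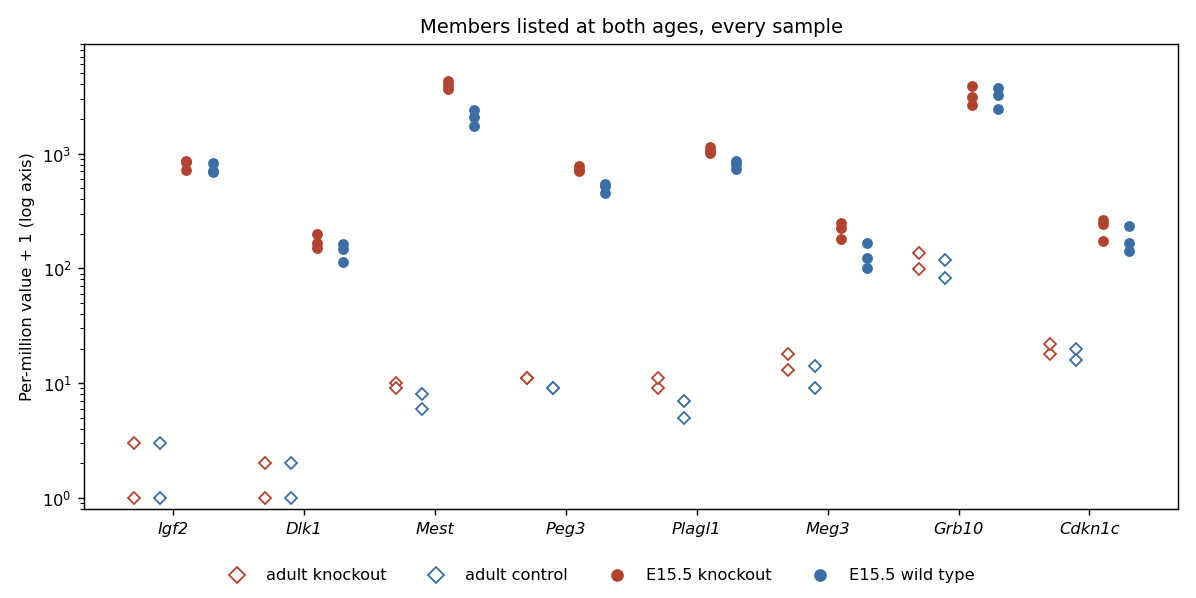
Per-million value plus 1, on a log axis, of the 8 imprinted growth genes listed at both ages, 1 point a sample (open for adult apex, filled for E15.5 hearts; knockout and control side by side). Every adult point lies below every E15.5 point of the same gene, with adult Igf2 and Dlk1 at no more than 2 units before 1 is added.

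Profiles over the 10 samples were compared by distance, the root mean square difference of log2(value + 1) after each gene was set to 0 at its wild-type E15.5 mean, among genes listed at both ages with a mean of at least 10 in a group. The genes nearest to Igf2 of 8087 ranked were Gm12537 (distance 0.49), Gm14150 (0.53), the atrial myosin light chain Myl4 (0.66), the ubiquitin-conjugating enzyme variant Ube2v1 (0.66) and Gm13054 (0.75). Mest ranked 6th for Igf2 (0.81). Dlk1 and Plagl1 were near each other, Plagl1 in rank 7 for Dlk1 and Dlk1 in rank 10 for Plagl1 (distance 0.45). Meg3 was in rank 602 for its cluster neighbour Dlk1 (2.18), and Cdkn1c in rank 230 for Meg3 (0.51). The samples of an age share their table and its normalization, so a distance includes the gap between tables.

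Other imprinted genes, fixed as lists by the parental copy that is known to be expressed, were set beside the 10. Whether the genes of these lists are imprinted in the heart was not tested. At E15.5, 17 of 23 listed genes of the paternal list were found and 15 tested, with 0 called in limma and 4 higher at an unadjusted p under 0.05, against 10.3% of all genes. In this list 13 changes were above 0 (60.4% of all genes) and 5 genes were higher without overlap (19.3% of all genes), and the median was 0.20, against 0.11 over all genes. Nnat, a small membrane protein of neural and endocrine tissue, averaged 32 ± 2 in knockout hearts and 20 ± 2 in wild-type hearts (SD, n = 3 each, log2 change 0.65, adjusted p = 0.0955, limma). Peg10, a retrotransposon-derived gene needed in the placenta, averaged 73.7 ± 6.81 and 54.3 ± 6.81 (adjusted p = 0.222, limma), and Snrpn, a splicing protein gene, 98 ± 11.5 and 74.7 ± 12 (adjusted p = 0.285, limma). Of the maternal list 12 of 19 genes were found and 11 tested, with 0 called in limma, 3 higher at an unadjusted p under 0.05, 9 changes above 0 and a median of 0.19, beside the same shares of all genes. Its lowest p-values belonged to Asb4, a ubiquitin ligase adapter (71 ± 6 in knockout and 53.7 ± 6.03 in wild-type hearts), Klf14 (11.3 ± 0.58 and 7.33 ± 1.15) and Mirg, a noncoding RNA of the Dlk1 and Meg3 cluster (6.33 ± 1.53 and 3.67 ± 1.53), with adjusted p between 0.259 and 0.333 (limma).

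In the adult the other imprinted genes went in both directions. Of 11 tested genes of the maternal list 1 was called as higher (2.34% of all genes). This was Cobl, an actin nucleator, at 18 ± 2.83 in knockout and 8 ± 2.83 in control apex (SD, n = 2 each, log2 change 1.11, adjusted p = 9.72e-05, limma). Of 17 tested genes of the paternal list 1 was called as lower (0.95% of all genes). This was Snrpn, at 21 ± 4.24 in knockout and 32 ± 5.66 in control apex (log2 change -0.59, adjusted p = 0.0242, limma). In the paternal list 4 were lower at an unadjusted p under 0.05. Of all genes 12.4% reached this in either direction and 9.05% as higher, so that only the small remainder was lower. Ddc, the aromatic amino acid decarboxylase, averaged 1.5 ± 0.71 and 4.5 ± 0.71 (adjusted p = 0.103, limma), and the noncoding RNA Peg13 averaged 57 ± 4.24 and 75 ± 4.24 (adjusted p = 0.156, limma). Slc22a3 (5 ± 0 and 7.5 ± 0.71) and Ube3a (53 ± 5.66 and 46 ± 5.66) had the next lowest p-values of the maternal list and were not called (adjusted p = 0.522 and 0.689, limma). Neither Cobl (adjusted p = 0.0846) nor Snrpn (0.137) was called with no replicate block in limma, nor without the variance of rounding (0.62 for both), nor with neither (0.262 and 0.356). Snrpn was also not called with plain eBayes (0.57). Without 1 sample of number 1 the log2 change was 1.58 for Cobl and -0.96 for Snrpn, and without 1 of number 2 it was 0.63 and -0.21, values that have no test. The median change was 0.07 for the maternal list and 0 for the paternal list, against 0.08 over all genes.

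**Figure D5:**
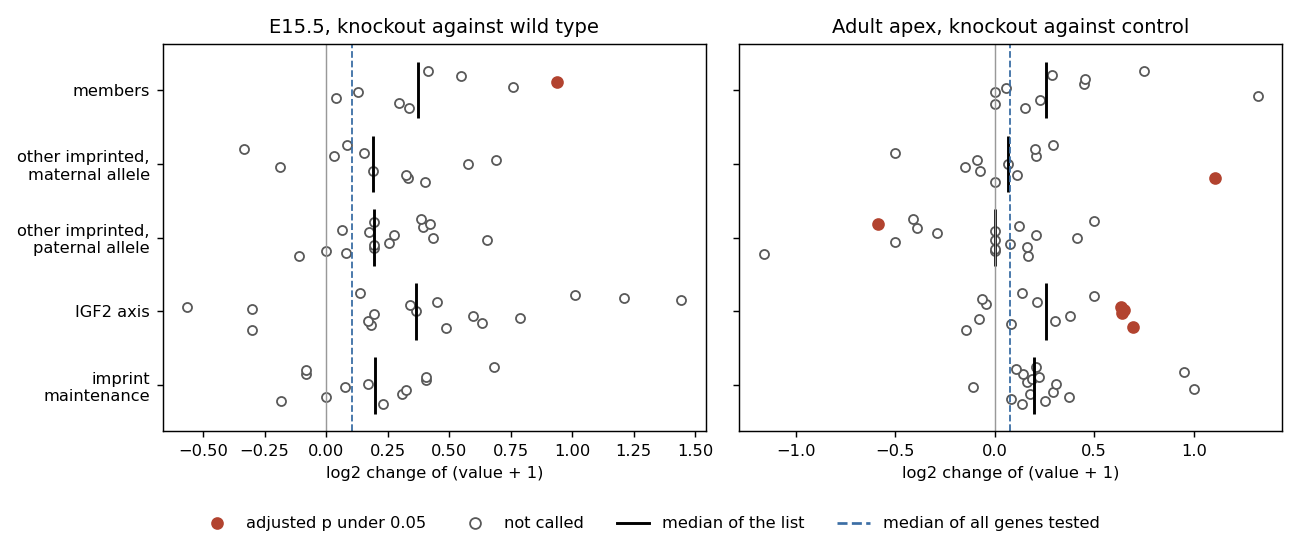
Log2 change of (value + 1), knockout minus control, of each tested gene in the 10 imprinted growth genes and the 4 fixed lists set beside them, at E15.5 (left) and in the adult apex (right); filled points passed the test, black lines are list medians and the dashed line is the median of all genes tested. At E15.5 the filled point is Mest, and in the adult the filled points are Cobl, Snrpn and 4 genes of the IGF2 axis.

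The fixed list for the IGF2 axis holds receptors, binding proteins and mRNA-binding proteins, and also the growth factor gene Igf1. Of 14 tested genes of this list in the adult, 4 were called as higher and 0 as lower, against 2.34% and 0.95% of all genes. Igf1, the postnatal relative of Igf2, had 33 in both knockout samples and 20 in both control samples (log2 change 0.70, adjusted p = 0.00368, limma). The IGF-binding protein genes Igfbp5 (204.5 ± 24.7 in knockout and 131.5 ± 24.7 in control apex, adjusted p = 0.00102), Igfbp6 (45 ± 4.24 and 28.5 ± 4.95, adjusted p = 0.00357) and Igfbp7 (274 ± 39.6 and 177.5 ± 38.9, adjusted p = 0.0011) rose as well (limma, SD, n = 2 each). All 4 genes lost their calls with plain eBayes in limma (adjusted p between 0.315 and 0.467), and the Igfbp genes did so with no replicate block too (adjusted p between 0.0703 and 0.137), without the variance of rounding (0.62 for each) and with neither (between 0.248 and 0.333). With crossed numbers as the block, the fit that called 6285 of the 14835 genes tested, Igfbp5 and Igfbp7 were not called (adjusted p = 0.14 and 0.154, limma). Without 1 sample of number 1 the log2 change, which then has no test, was 0.96 for Igfbp5, 0.91 for Igfbp6 and 0.26 for Igfbp7, and without 1 of number 2 it was 0.33 for Igfbp5, 0.38 for Igfbp6 and 1.00 for Igfbp7, with Igf1 at 0.70 throughout. In the same samples 9 of 10 fibroblast markers were higher without overlap and 3 of 10 epicardial markers were called as higher, and their part in these values was not tested. At E15.5 0 of 17 tested were called in limma, with 4 higher (against 10.3% of all genes) and 1 lower at an unadjusted p under 0.05. Of all genes 13.9% reached that p in either direction, the higher ones included. Igf2bp1, which binds Igf2 mRNA in the embryo, averaged 396 ± 65.8 in knockout and 259 ± 65.8 in wild-type hearts (SD, n = 3 each, adjusted p = 0.216, limma), Pappa2, a protease of IGF-binding proteins, 5.33 ± 1.15 and 2.33 ± 1.53 (adjusted p = 0.187), and Igfbp7 12.7 ± 3.21 and 19 ± 3.61 (adjusted p = 0.28).

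In the fixed list for imprint maintenance, which also holds enzymes that add or oxidise DNA methylation, no tested gene was called in either model. Dnmt1, Tet1, Zfp445, Smchd1, Dppa3 and Arid4b were not among the genes of the E15.5 values, so they were not tested there. At E15.5 0 of 12 tested were called in limma and 1 was higher at an unadjusted p under 0.05, against 10.3% of all genes. This was Tet3, an enzyme that oxidises methylated cytosine (116 ± 9.87 in knockout and 87.3 ± 9.87 in wild-type hearts, SD, n = 3 each, adjusted p = 0.256). Its relative Tet2 averaged 53.3 ± 9.45 and 40.3 ± 9.29 (adjusted p = 0.384, limma), and the DNA methyltransferase Dnmt3a 410.3 ± 12.3 and 331.3 ± 11.9 (adjusted p = 0.421, limma). In the adult 0 of 16 tested were called in limma and 2 were higher at an unadjusted p under 0.05, where 9.05% of all genes were. These were Uhrf1 (4.5 ± 0.71 in knockout and 2 ± 1.41 in control apex, adjusted p = 0.202) and the maintenance methyltransferase Dnmt1 (26 ± 5.66 and 20 ± 5.66, SD, n = 2 each, adjusted p = 0.331); the chromatin remodeller Hells averaged 2 ± 1.41 and 0.5 ± 0.71 (adjusted p = 0.535, limma).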

How the data were processed

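RNA of 10 mouse heart samples was sequenced with standard Illumina libraries, per the labels' protocols; HISAT2, HTSeq and mm10 are named in the submitters' processing notes, with no version. The authors deposited, for each model, a score per gene and sample, which from the values is a per-million number rounded to whole numbers; scaling and adjustment are not given in the sources used here, and depth cannot be recovered. The deposited tables also hold the authors' log2 fold changes and p-values, copied where named.

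From these values limma 3.58.1 (R 4.3.3) was fitted within each table on log2(value + 1), with the replicate number as a block, because same-numbered values add to a fixed total; the labels do not state this pairing. The rounding variance, 0.0833 on the scale of the values, was carried to the log2 scale at each gene's mean. It was then added to the gene's residual variance, so that it is very small for genes of high level. The eBayes step was run with trend and robust options. A gene was tested if it reached 1 in at least as many samples as a group has. Residual degrees of freedom were 2 at E15.5, with a median prior of 27.54, and 1 in the adult, with an infinite median prior. The code was checked on simulated tables.

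The members, gene lists, named-gene rule and fit were chosen with earlier results of these data known. Named genes were the 10 members, Larp7, genes called in each list (or the 3 with the lowest p-value) and the 5 nearest profiles of Igf2; H19 could not be ranked, being listed in 1 table. Marker lists are given as sums. Copg2, Mir675 and other genes overlapping the members were added after their values were seen.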

Additional observations from a re-analysis of the deposited data

How the results depend on the processing

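At E15.5, where Mest alone was called among the imprinted growth genes, the number called was 2 with no replicate block, 0 without rounding variance, 3 with neither, 2 with a pseudocount of 4, 2 with no filter on low values, and 0 with a mean of at least 10, with median-of-ratios scaling or with plain eBayes; without 1 sample it was 0 to 4. The 4 other lists, with 0 called, had 2 with no replicate block, 5 with neither block nor rounding variance, 6 with no filter, and 0 to 4 without 1 sample. Calls over all E15.5 genes moved as well, from 86 to 604 with no replicate block, 0 without rounding variance and 1040 with neither. They were 221 with a pseudocount of 4, 601 with no filter, 39 with median-of-ratios scaling and 213 to 506 without 1 sample. A mean of at least 10 and plain eBayes each gave 0. In the adult, with 0 members and 6 list genes called, the counts were 0 and 2 with no replicate block, 1 and 2 without rounding variance or with neither, and 1 and 4 with plain eBayes. Over all adult genes 488 were called, against 409 with no replicate block, 1130 without rounding variance, 1622 with neither and 610 with plain eBayes. Grb10 at E15.5 turned to -0.025 with median-of-ratios scaling and lay between -0.27 and 0.3 without 1 sample (-0.27 without either number 2 heart), and Igf2r in the adult to -0.00405 with that scaling. The cause was not tested. Leaving out an adult sample leaves no residual degree of freedom, so it gave values and no test; a mean of at least 10 left out adult Igf2, Dlk1, Peg3, Mest and Plagl1. The replicate numbers do not pair the samples by label: over genes, which are no replicates of each other, deviations within a number correlated at -0.816 to -0.798 at E15.5 and -0.807 in the adult. Crossed numbers as a block, added after seeing the data, called 6 members and 27 list genes in the adult, and 6285 of all 14835 genes tested. Fixed totals make the crossed differences of a gene nearly equal, so this fit cannot measure the spread. Leaving out genes whose totals differ by more than 2, also added after seeing the data, moved no count of members or list genes. Depth is unknown and limits what can be said of values near 1.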
